A study of Mus musculus with 4 samples.

Results

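The genes described here are the 10 of the mouse class II antigen presentation module among the 32285 genes listed in the files: the invariant chain Cd74, the chains H2-Ab1, H2-Aa and H2-Eb1, the peptide editors H2-DMa, H2-DMb1 and H2-DMb2, their inhibitors H2-Oa and H2-Ob, and the regulator Ciita. They were chosen by symbol. Their RNA was followed in live CD45-positive (immune) cells sorted from digested hearts without atria of C57BL/6 mice, by 10x Genomics single-cell RNA sequencing of transcript 3′ ends. The groups were PD1 KO after myocardial infarction (KO_MI), PD1 Het after infarction (Het_MI), PD1 KO after a sham operation (KO_sham) and PD1 Het after a sham operation (Het_sham). PD1 is a receptor that restrains activated lymphocytes, and its gene was deleted on both chromosomes in KO mice and on 1 in Het mice, so every group lacked at least 1 copy and no wild type was compared. Surgery was at postnatal day 2, and hearts were taken 7 days later. Each group is 1 library, and how many hearts went into it is not stated, so the differences below rest on single libraries and carry no test across animals. The intervals given are exact 95% intervals that cover counting error only.

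Class II molecules show peptides from taken-up or lysosomal protein to CD4 T cells. An alpha chain (H2-Aa) pairs with a beta chain (H2-Ab1), and H2-Eb1 encodes the beta chain of the other mouse isotype, whose alpha chain gene is not expressed in C57BL/6. Cd74 fills the groove until the molecule reaches the lysosome, where the H2-DM dimer swaps its last fragment for peptide and the H2-O dimer restrains H2-DM. Ciita is the co-activator that assembles on class II promoters, constantly in dendritic cells and B cells and after interferon gamma in macrophages.

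The libraries held 8379, 6157, 7787 and 7745 barcodes in KO_MI, Het_MI, KO_sham and Het_sham, and any pair shared 4 to 13 of them. Of the barcodes that passed the filter (7104, 5074, 6407 and 5376), 23.1%, 19.4%, 15.7% and 17.6% carried RNA of several lineages and were set aside, and 67.7%, 72.3%, 76.8% and 71.9% were given 1 of 14 cell types by markers that include no class II gene. Macrophages were the largest type, with 2759, 2035, 2478 and 1422 cells, and all 12 macrophage markers were detected in each library. KO_MI stood apart from the other libraries in sex: its macrophages held no UMI (unique molecular identifier, a counted RNA molecule) of 4 Y-linked genes, against 136, 97.4 and 84.8 CPM (UMIs per 1000000 UMIs of the cell type) in Het_MI, KO_sham and Het_sham, with Xist at 1119, 245, 440 and 311 CPM. The sex of KO_MI and its group cannot be told apart, so the class II total and the summed chains are also given in Xist-positive macrophages without any Y-linked UMI. Pdcd1 in T cells was at 27.5, 18.8, 13.3 and 4.98 CPM in the same order. Which part of the gene was deleted is not stated in the sources used here, so a 3′ tag does not check the genotype.

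Of the 10 genes, 8 lay in 224 kb of the class II region on chromosome 17 (GRCm38, 34092340 to 34316674) and Ciita on chromosome 16 (10480059 to 10528418). All 10 are protein-coding, and every identifier matched the annotation.

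The RefSeq promoter table (GRCm38.p6, 250 bases before to 50 after each start) holds windows for 7 of them. Class II promoters are known for an X box and a Y box, bound by RFX and NF-Y. The Y box letters GATTGG, sought on both strands, were found in 7 of 8 windows (H2-DMa has a pair, 1 of them without it), against 16.1% of all 32851 windows, and the X box core in 3 of 8 (H2-Eb1, H2-DMb1 and H2-Oa), against 0.968%. No match overlapped another. The X box core was sought as a strict pattern, with some positions free and no mismatch allowed at the others. A window without a match may therefore still hold an X box. The H2-DMb2 and H2-Ob stretches below each hold letters 1 base off this pattern, left unmarked. The stretches below run from 45 bases before the Y box to 15 after it, and are shown because, among the genes with a window, they set 3 that were called higher in KO_MI than in Het_MI macrophages (H2-Aa, H2-Eb1, H2-DMb1) beside 2 that were not (H2-DMb2, H2-Ob). The letters alone did not separate called genes from the others: H2-Oa, with both matches, was not called, and H2-DMa, with no X box core match, was. Position differed too. The X box core and Y box began 141 and 44 bases before the start in H2-Oa. They began at 92 and 60 in H2-Eb1, and at 95 and 62 in H2-DMb1. The Y box of H2-DMa began 199 bases before the start. Capitals mark the matches, the longer one being the X box core.
H2-Aa, chr17:34287852-34287917, minus strand: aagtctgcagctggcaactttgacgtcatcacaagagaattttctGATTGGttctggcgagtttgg
H2-Eb1, chr17:34305762-34305827, plus strand: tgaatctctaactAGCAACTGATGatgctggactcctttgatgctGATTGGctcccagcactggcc
H2-DMb1, chr17:34153084-34153149, plus strand: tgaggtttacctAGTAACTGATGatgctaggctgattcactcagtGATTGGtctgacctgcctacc
H2-DMb2, chr17:34145113-34145178, plus strand: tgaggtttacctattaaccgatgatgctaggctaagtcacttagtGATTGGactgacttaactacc
H2-Ob, chr17:34238802-34238867, plus strand: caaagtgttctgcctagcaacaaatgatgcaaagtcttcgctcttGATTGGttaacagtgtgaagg
The windows of H2-DMb1 and H2-DMb2, neighbouring copies of 1 gene, differ at 9 of 66 bases. Of these, 2 fall in the X box core, G2T and T7C (H2-DMb1 first, counted from 1 at its first base). A match describes letters only, and no binding was measured.

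Dendritic cells and B cells carried most class II RNA per cell, and macrophages a lower and far more variable amount. Summed over the 10 genes, the level ran in the order cDC1 (cross-presenting dendritic cells, 117 cells), cDC2 (33 cells), migratory dendritic cells (56), B cells (3455), plasmacytoid dendritic cells (29), macrophages (8694), classical monocytes (656) and non-classical monocytes (1811). Basophils, T cells, ILC2 (type 2 innate lymphoid cells), mast cells, neutrophils and NK cells followed. The total was 38361, 43733, 40513 and 42074 CPM in cDC1 of KO_MI, Het_MI, KO_sham and Het_sham, and 11491, 10700, 10949 and 12173 CPM in B cells. In macrophages it was 3418, 1229, 855 and 464 CPM. Over libraries with at least 5 cells of a type, the ranges of the first 5 types did not overlap from one to the next. The range of plasmacytoid dendritic cells overlapped that of macrophages, though within each library with at least 5 such cells they were higher (5509, 6398 and 2691 CPM in KO_MI, Het_MI and KO_sham). Classical monocytes had 995, 1666, 565 and 383 CPM in KO_MI, Het_MI, KO_sham and Het_sham, above macrophages in Het_MI and below them in the other libraries. Non-classical monocytes had 640, 269, 664 and 285 CPM, above classical monocytes in KO_sham and below them elsewhere, so the order of these 3 types was not the same in every library.

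**Figure D1:**
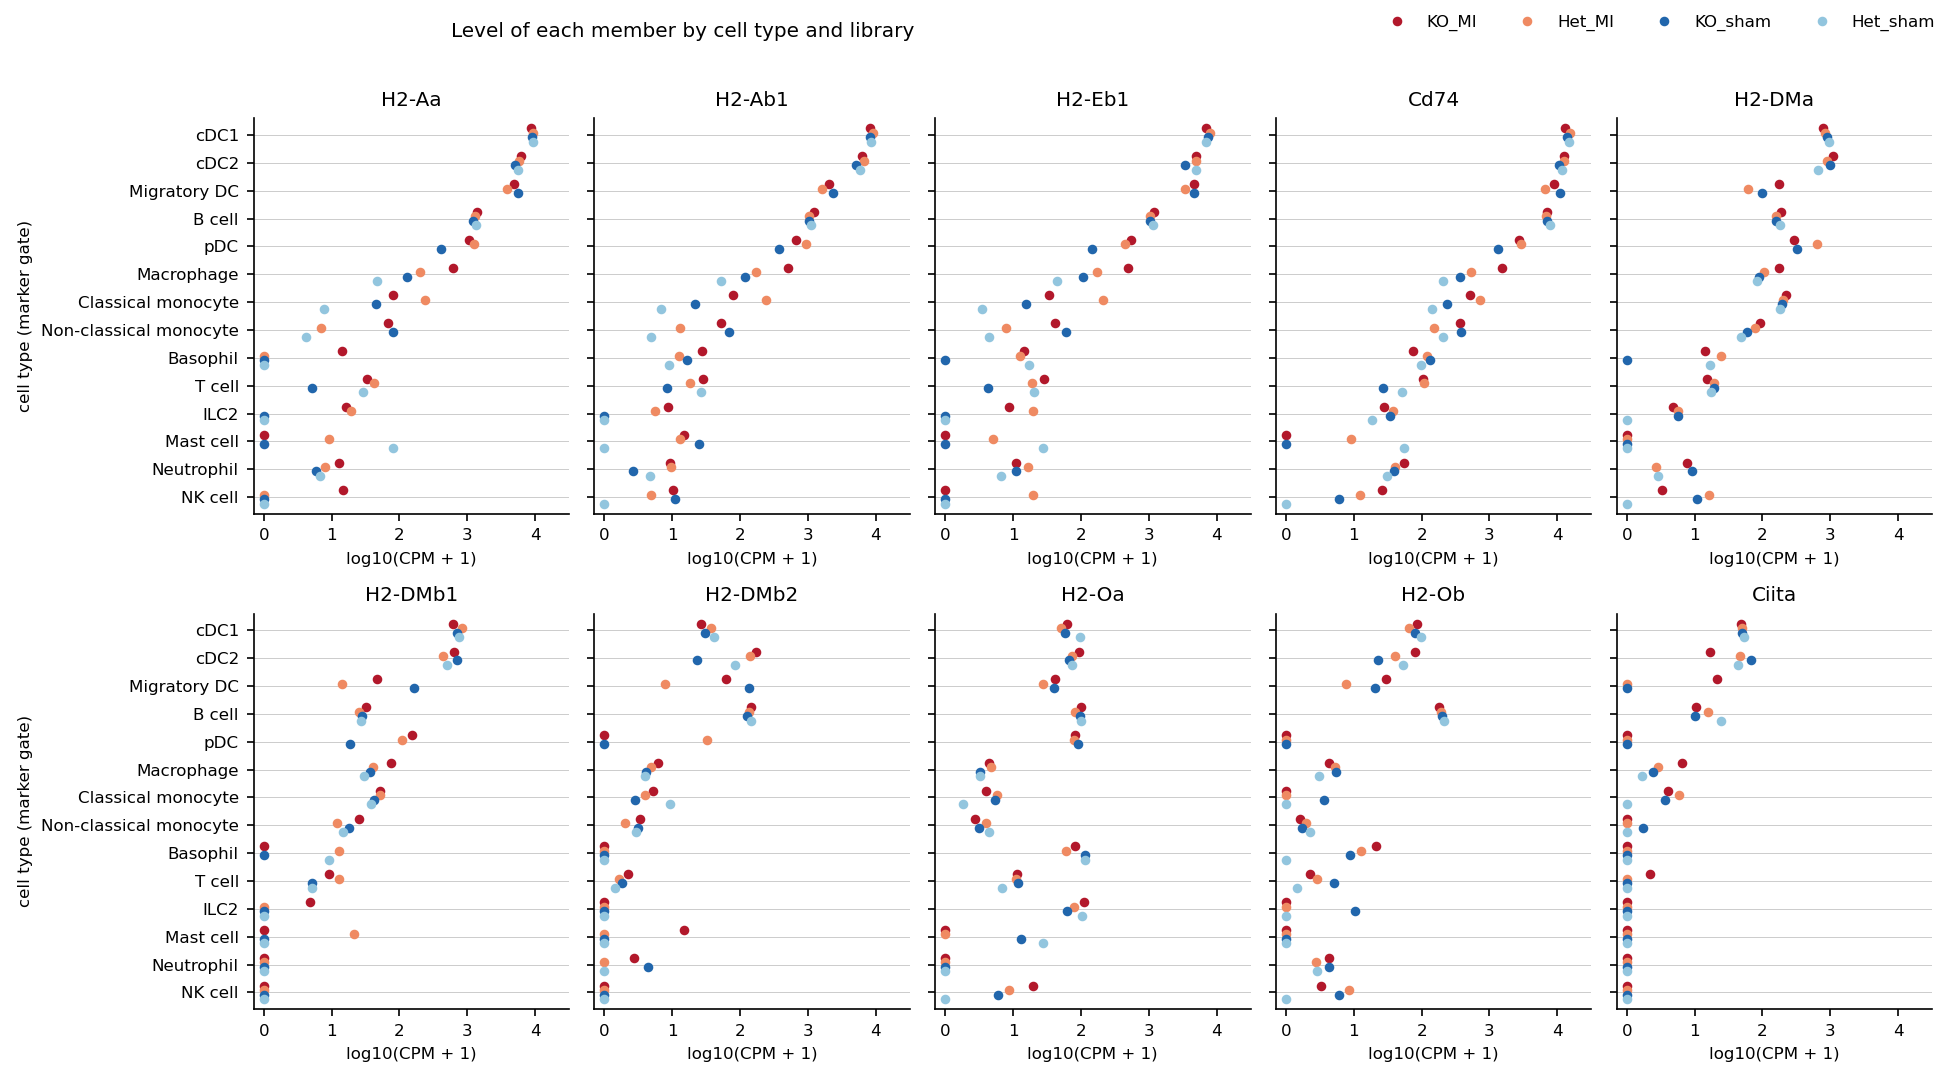
Level of each of the 10 genes, as log10(CPM + 1), by marker-gated cell type, with 1 point per library of at least 5 cells. The library points lie close together in cDC1 and B cells for the chains and Cd74, and spread out in macrophages and monocytes.

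In cDC1 the chains, Cd74, H2-DMa, Ciita and the total differed by less than 1.5-fold in every comparison. H2-Aa had 8845, 9432, 8925 and 9413 CPM in KO_MI, Het_MI, KO_sham and Het_sham, and Cd74 had 12797, 15458, 13998 and 15017 CPM. The total in KO_MI was 0.877-fold that in Het_MI (0.856 to 0.899), from 23 and 31 cells, and 0.947-fold that in KO_sham. Every cDC1 held chain UMIs. H2-Oa was the exception to this evenness, with 62.3, 49.1, 56.7 and 95.2 CPM from 17, 19, 29 and 31 UMIs, and was 0.515-fold in Het_MI of Het_sham (0.275 to 0.941). H2-Ob was 0.657-fold in the same comparison. Ciita stood at 47.6, 49.1, 48.8 and 52.2 CPM, its highest level with that of cDC2, whose range overlapped it.

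B cells were likewise even. The 3 chains together had 3759, 3362, 3317 and 3611 CPM in KO_MI, Het_MI, KO_sham and Het_sham, and the total ratios between libraries lay between 0.879 (Het_MI over Het_sham) and 1.07 (KO_MI over Het_MI). Ciita was the member that differed most there, with 9.36, 14.7, 9.31 and 23.9 CPM from 31, 68, 54 and 123 UMIs. It was 0.389-fold in KO_sham of Het_sham (0.277 to 0.540) and 0.613-fold in Het_MI of Het_sham (0.449 to 0.831), while the chains in the same cells were 0.919-fold and 0.931-fold. Within B cells the chains were lowest in the few pro-B and pre-B cells (15 to 23 a library), at 532, 908, 1385 and 2321 CPM, and highest in cells with mature B cell markers and no Vpreb3, a marker of immature B cells, at 5247, 4587, 4323 and 3730 CPM. In the pro-B and pre-B cells 1 cell gave 57.1%, 41.7%, 23.4% and 28.1% of the chain UMIs.

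In macrophages the chains, Cd74 and Ciita were higher in KO_MI than in Het_MI, higher after infarction than after sham surgery in both genotypes, and higher in KO_sham than in Het_sham. The total in KO_MI was 2.78-fold that in Het_MI (2.75 to 2.82) and 4.00-fold that in KO_sham (3.94 to 4.05). It was 2.65-fold higher in Het_MI than in Het_sham (2.58 to 2.72) and 1.84-fold higher in KO_sham than in Het_sham (1.80 to 1.89). A member was called where it differed by at least 1.5-fold with at least 30 UMIs over both libraries, and all 10 passed that minimum in every comparison. For KO_MI over Het_MI, 7 members were called higher and 0 lower, against 4.29% and 4.19% of all 12731 genes measured. For KO_MI over KO_sham, 9 were called higher and 0 lower, against 6.06% and 5.64%. For Het_MI over Het_sham the counts were 7 and 0, against 6.14% and 6.73%, and for KO_sham over Het_sham 6 and 0, against 3.41% and 5.01%. The median log2 ratio of the 10 genes was 1.21, 1.51, 1.19 and 0.96 in these comparisons, and that of all genes measured −0.11, −0.12, −0.07 and −0.07. These comparisons share libraries.

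**Figure D2:**
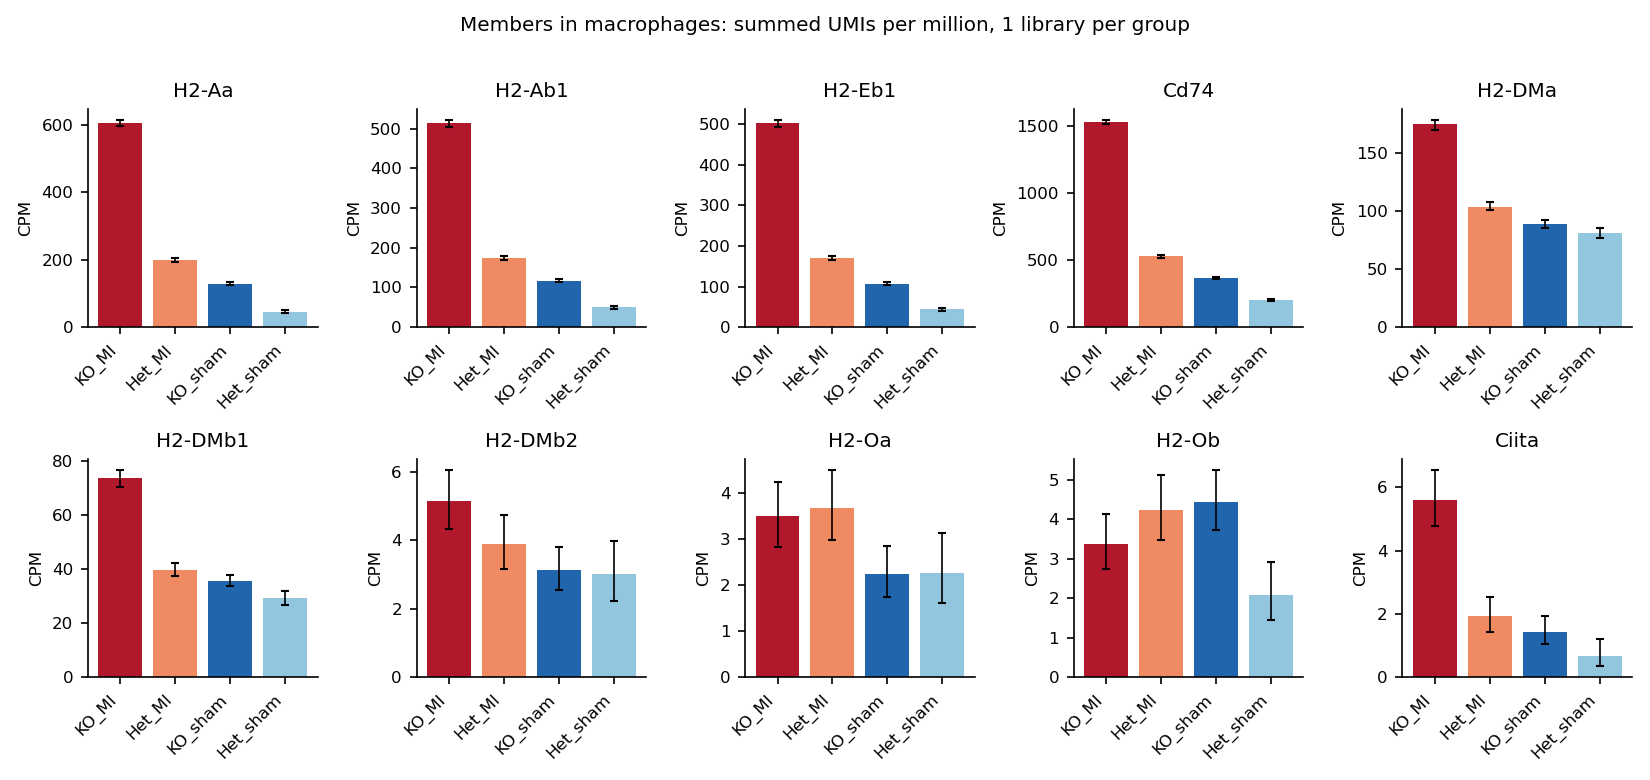
CPM of each gene in macrophages of the 4 libraries, with exact 95% Poisson intervals (counting error only), each axis from 0. The chains, Cd74 and Ciita stand highest in KO_MI and lowest in Het_sham, while H2-Oa and H2-Ob do not follow that order.

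The 3 chains followed each other closely. H2-Aa had 606 CPM in KO_MI, 199 in Het_MI, 129 in KO_sham and 46.3 in Het_sham, from 16864, 5070, 3983 and 753 UMIs. H2-Ab1 had 513, 173, 117 and 50.4 CPM in that order, and H2-Eb1 had 501, 171, 107 and 43.7 CPM. The order of the libraries was thus the same for each, with no interval overlapping another. As log2 ratios, KO_MI over Het_MI was 1.61, 1.57 and 1.55 for H2-Aa, H2-Ab1 and H2-Eb1, and KO_sham over Het_sham was 1.48, 1.22 and 1.29. The log2 ratio of KO over Het was larger in MI than in sham by 0.24 for the summed chains (0.17 to 0.32), and for H2-Aa by 0.13, with an interval that reached 0.00. This depended on single cells. Without the top cell of each library, the ratio of the summed chains was 1.62 in MI and 1.59 in sham. That of H2-Aa was then 1.65 in MI and 1.76 in sham.

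Cd74, the invariant chain, lies apart from the other genes, on chromosome 18 (60803848 to 60812652). It had 1531, 528, 365 and 205 CPM in KO_MI, Het_MI, KO_sham and Het_sham. Its log2 ratio of KO over Het was 1.54 in MI and 0.84 in sham, a difference of 0.70 (0.64 to 0.76). Ciita had 5.61, 1.92, 1.43 and 0.676 CPM, from 156, 49, 44 and 11 UMIs. Its log2 ratio was 1.55 for KO_MI over Het_MI (1.08 to 2.04) and 1.51 for Het_MI over Het_sham (0.54 to 2.60). Ciita made up 0.917%, 0.957%, 1.09% and 1.44% of the UMIs of Ciita and H2-Aa together, with overlapping intervals, while both genes differed several-fold.

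The peptide editors differed less. H2-DMa had 175, 104, 89.3 and 81.5 CPM in KO_MI, Het_MI, KO_sham and Het_sham, and H2-DMb1 had 73.7, 39.8, 35.7 and 29.2 CPM. For both, KO_MI was set apart and the other 3 libraries lay close together. The log2 ratio of KO_MI over Het_MI was 0.74 and 0.89, while KO_sham over Het_sham gave 0.13 and 0.29, below the 1.5-fold limit. H2-DMb2 was low, with 5.14, 3.88, 3.12 and 3.01 CPM, and passed 1.5-fold for KO_MI over KO_sham only (1.65-fold, 1.26 to 2.16). H2-DMb1 and H2-DMb2 transcripts are 94.6% identical over their aligned length and share no 91-base stretch in their last 500 bases, where the reads of this assay start. How reads common to both were assigned is not given in the sources used here, so their split is uncertain.

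The H2-O genes did not follow the chains. H2-Oa had 3.49, 3.68, 2.24 and 2.27 CPM in KO_MI, Het_MI, KO_sham and Het_sham, from 97, 94, 69 and 37 UMIs, so that it was higher after infarction and close between genotypes. The log2 ratio of Het_MI over Het_sham was 0.70 but turned to −0.38 in thinned cells and −0.63 in Xist-positive cells without Y-linked UMIs. KO_MI over Het_MI was −0.08 on the log2 scale (−0.50 to 0.35). H2-Ob had 3.38, 4.23, 4.45 and 2.09 CPM from 94, 108, 137 and 34 UMIs, lowest in Het_sham, with overlapping intervals among the other libraries. Its log2 ratio of KO over Het was −0.32 in MI (−0.74 to 0.09) and 1.09 in sham (0.54 to 1.68).

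The size of these ratios depended on which droplets were counted as macrophages. The log2 ratio of the total for KO_MI over Het_MI was 1.48, but 0.84 with droplets of several lineages kept and 2.71 in Xist-positive macrophages without Y-linked UMIs (2649 cells of KO_MI and 331 of Het_MI). For KO_MI over KO_sham it was 2.0, with 1.41 when such droplets were kept. In the Xist cells Het_MI over Het_sham gave 0.64 in place of 1.41, and KO_sham over Het_sham gave 1.62 in place of 0.88. The total in those cells was 3452, 526, 1038 and 338 CPM in KO_MI, Het_MI, KO_sham and Het_sham. The summed chains stood at 1639, 150, 449 and 78.2 CPM in that order. KO_sham thus lay above Het_MI there, the reverse of all macrophages. Without macrophages holding 2 or more dendritic markers, KO_sham over Het_sham was 0.55, under 1.5-fold. All of these ratios were positive. The 13 dendritic core markers together stood at 99.7, 77.8, 64.0 and 65.5 CPM in macrophages of KO_MI, Het_MI, KO_sham and Het_sham with 12 of 13 detected, 5 B cell core markers at 48.6, 50.3, 53.8 and 55.5 CPM, and 4 T cell core markers at 18.3, 12.1, 7.80 and 48.0 CPM. The 8 listed markers of migratory dendritic cells, all detected, moved further and in the order of the chains, at 139, 61.1, 45.3 and 30 CPM. The other dendritic lists moved less. Listed markers of cDC1 stood at 150, 150, 143 and 124 CPM, and those of cDC2 at 547, 633, 555 and 524 CPM. Those of plasmacytoid dendritic cells stood at 479, 472, 457 and 527 CPM. The 9 listed markers of classical monocytes, Ccr2 among them, stood at 486, 228, 237 and 186 CPM. Doublets among macrophages, monocytes and dendritic cells were not caught. Apart from the ratios just given, the part of these markers in the differences was not tested.

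The share of macrophages with many chain UMIs differed between the libraries. The share with any UMI of the 10 genes before thinning was close, at 81.4%, 79.9%, 78.5% and 75.3% in KO_MI, Het_MI, KO_sham and Het_sham. That count takes in Cd74 and H2-DMa, which were also found in cells without a chain UMI. The share with any chain UMI before thinning was 33.6%, 21.5%, 16.1% and 11.5%. With each cell thinned to 2000 UMIs, at least 5 chain UMIs were found in 308 of 2660 macrophages of KO_MI (11.6%, 10.4 to 12.9), 72 of 1985 of Het_MI (3.63%, 2.85 to 4.55), 49 of 2415 of KO_sham (2.03%, 1.5 to 2.67) and 10 of 1294 of Het_sham (0.773%, 0.371 to 1.42). These intervals do not overlap. Within those cells, which were chosen by the same UMIs, the mean was 23.3, 22.1, 21.7 and 21.7 chain UMIs. The cells below the limit also differed, with 98.6, 46.0, 34.2 and 25.7 CPM of the chains. The cells at or above the limit held 93.9%, 90.0%, 86.8% and 76.7% of the chain UMIs left after thinning in their library's macrophages. The limit of 5 is a range and not a type, and 117, 27, 24 and 6 cells lay within 2 UMIs of it. Neutrophils, which should lack these genes, had none past the limit (0 of 112, 148, 146 and 138 cells, which allows up to 2.68%, 2.03%, 2.05% and 2.17%).

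**Figure D3:**
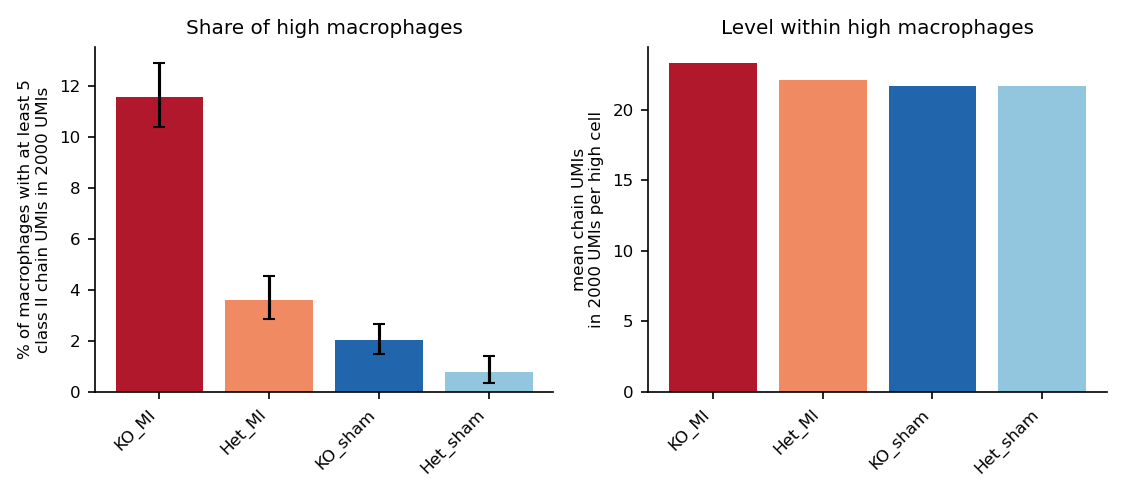
Left, percent of macrophages with at least 5 UMIs of H2-Aa, H2-Ab1 and H2-Eb1 in 2000 UMIs, with exact 95% intervals. Right, mean chain UMIs in those cells. The share runs from 11.6% in KO_MI to 0.773% in Het_sham. The mean, in cells chosen by the same UMIs (10 of them in Het_sham), lies between 21.7 and 23.3.

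A looser count, any chain UMI in 2000, gave 21.7%, 9.82%, 6.71% and 4.33% of macrophages of KO_MI, Het_MI, KO_sham and Het_sham, against 4.46%, 7.43%, 4.79% and 2.90% of neutrophils. Before thinning the macrophage shares were 33.6%, 21.5%, 16.1% and 11.5%, at median depths of 8534, 10475, 10720 and 10458 UMIs, while neutrophils had medians of 1997, 2432, 2178 and 2291 UMIs. By that count the macrophages of Het_MI, KO_sham and Het_sham lay within the intervals of their neutrophils (3.77% to 12.9%, 1.95% to 9.63% and 0.795% to 7.26%), and those of KO_MI lay above theirs (1.47% to 10.1%), so a single chain UMI is not read as expression. Thinning left out 99, 50, 63 and 128 macrophages.

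Cd74, H2-DMa and H2-DMb1 were higher in macrophages with many chain UMIs, and each was still found in those without any after thinning. Macrophages with 5 or more chain UMIs had Cd74 at 9545, 8319, 8020 and 7250 CPM in KO_MI, Het_MI, KO_sham and Het_sham, and those with none had 194, 115, 97.9 and 93.7 CPM. H2-DMa was at 552, 493, 561 and 400 CPM in the high cells, and still at 109, 86.6, 77.0 and 91.7 CPM in cells without a chain UMI. In neutrophils of the same libraries it was at 6.72, 1.74, 8.31 and 1.89 CPM. H2-DMb1 likewise stood at 325, 354, 408 and 450 CPM in the high cells. In cells without a chain UMI its interval was 25.0 to 35.7 CPM in KO_MI, and its level was 23.2, 23.7 and 25.4 CPM in Het_MI, KO_sham and Het_sham. In the high cells of KO_MI, Ciita reached 32.5 CPM (20 UMIs, 19.8 to 50.1), against 1.68 CPM in cells without chain UMIs (0.676 to 3.46). In the 72 high cells of Het_MI no Ciita UMI was found at this depth, which allows up to 25.6 CPM by the exact interval. High cells of KO_sham had 20.4 CPM (2 UMIs, 2.47 to 73.7) and those of Het_sham 100 CPM (2 UMIs, 12.1 to 361). Both intervals overlap that of KO_MI.

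Macrophages positive for Ccr2, a marker of monocyte-derived cells, held the highest chain level of the subsets in KO_MI, Het_MI and KO_sham, and in Het_sham were passed by subsets of 14 and 5 cells. Cells with a Ccr2 UMI had 4113, 2076, 1379 and 780 CPM of the 3 chains in KO_MI, Het_MI, KO_sham and Het_sham, and were 21.4%, 14.9%, 12.3% and 9.56% of macrophages. In Het_sham 1 cell gave 31.1% of these UMIs. Cells with 3 or more markers of Lyve1 resident macrophages had 830, 369, 216 and 107 CPM, and were 35.4%, 49.3%, 50.6% and 46.0%. Cells that met the limit of no subset, those of the next paragraph included, had 529, 192, 212 and 17.5 CPM, and may still hold single subset markers. In each of these subsets KO_MI stood highest and Het_sham lowest, so the order of those 2 libraries held within them. The subsets may share cells, and their markers were set with the data in view.

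Cells with both Spp1 and Gpnmb, genes of phagocytes in injured tissue, had 1944 CPM of the chains in KO_MI (352 cells) and 593 CPM in Het_MI (207 cells). Sham hearts had 29 such cells in KO_sham at 9.89 CPM and 14 in Het_sham at 785 CPM, where 1 cell gave 88.4% of the UMIs. Macrophages with at least 2 of the interferon-induced genes Cxcl9, Gbp2 and Gbp5 numbered 134, 16, 13 and 5 in KO_MI, Het_MI, KO_sham and Het_sham, and had 3666, 1520, 297 and 1484 CPM of the chains. In the smaller 3 groups 59.7%, 46.7% and 99.4% of these UMIs came from 1 cell. The 104 Cxcl9-positive macrophages of KO_MI gave 16.9% of its chain UMIs, and those without Cxcl9 still had 1423 CPM, against 532 CPM in Het_MI.

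**Figure D4:**
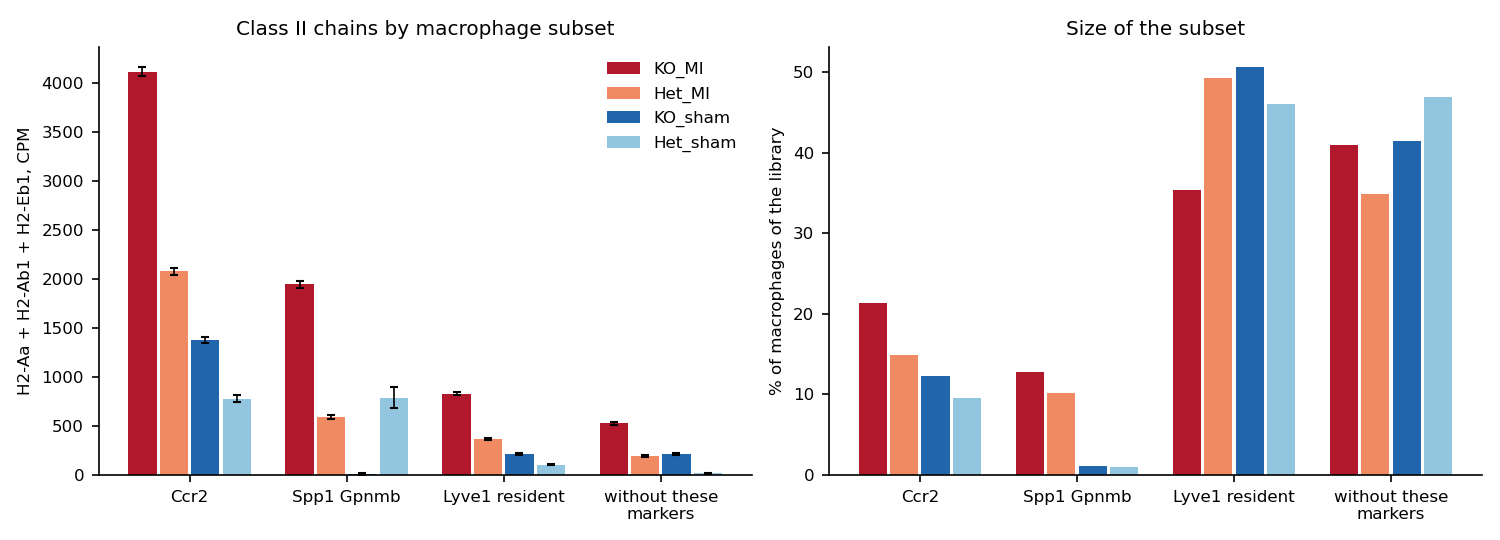
Left, CPM of H2-Aa, H2-Ab1 and H2-Eb1 together by macrophage subset and library, with exact 95% Poisson intervals. Right, each subset's share of the macrophages. KO_MI is highest in each subset shown, up to 4113 CPM in Ccr2-positive cells. The cells labelled as without these markers met no subset limit, and may hold single markers.

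Other genes of the pathway were read from lists, by the same 1.5-fold limit in macrophages. Of 16 regulators of class II transcription, 1 was called for Het_MI over Het_sham, close to the share of all genes. It was Irf1, an interferon-induced factor, which was higher. It had 117, 132, 101 and 71.2 CPM in KO_MI, Het_MI, KO_sham and Het_sham. For KO_sham over Het_sham none of 16 was called. The receptor subunit Ifngr1 had 194, 198, 188 and 210 CPM, and the myeloid factor Spi1 had 376, 392, 394 and 401 CPM, with Irf8 and Jak1 also within 1.5-fold in each comparison.

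Of 10 genes of antigen processing, none was called for KO_MI over Het_MI or for KO_sham over Het_sham, and 1 (Ctsl) for Het_MI over Het_sham. For KO_MI over KO_sham, 3 were called higher, Ctss, Ctsl and Ctsd. The cathepsin Ctss, which trims the invariant chain, had 1772, 1188, 812 and 893 CPM, with KO_MI over Het_MI at 0.58 on the log2 scale, just under the limit. Ctsb and Lgmn differed by less in every comparison. Of 6 co-stimulatory genes, 1 was called in each comparison: Cd40 for KO_MI over Het_MI (10.7 against 5.52 CPM) and over KO_sham (4.74 CPM), and Cd83 for Het_MI over Het_sham (452 against 238 CPM) and KO_sham over Het_sham (381 CPM in KO_sham). Cd86 was at 194, 242, 253 and 230 CPM.

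Of 7 neighbours or near copies, 6 are in the files and 5 were measured. The class I processing genes of the same region, Psmb8, Psmb9 and Tap1, were higher in KO_MI than in Het_MI by 0.81, 0.70 and 1.02 on the log2 scale, and Btnl2 was lower (−1.29, from 12 and 27 UMIs). For KO_MI over KO_sham, Psmb8 and Tap1 were called higher (0.65 and 0.98) and Btnl2 lower (−1.27, from 12 and 32 UMIs). None of the 5 was called for Het_MI over Het_sham or KO_sham over Het_sham. Tap1 had 77.4, 38.2, 39.1 and 44.4 CPM in KO_MI, Het_MI, KO_sham and Het_sham. Tap2 had 34.2, 31.4, 31.6 and 32.3 CPM.

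Monocytes carried less chain RNA than macrophages, except for classical monocytes of Het_MI (685 against 543 CPM). In most libraries 1 cell gave a large share of it. In classical monocytes the chains had 190, 685, 79.5 and 14.9 CPM in KO_MI, Het_MI, KO_sham and Het_sham, with 53.4%, 41.0%, 55.1% and 50.0% of the UMIs in 1 cell. KO_MI was thus below Het_MI here, at 0.277-fold (0.242 to 0.317), the opposite of macrophages, and chain UMIs were present in 26 of 235 and 15 of 121 cells. H2-DMa, by contrast, was even, at 225, 200, 196 and 180 CPM, and was detected in 68.9%, 76.9%, 69.6% and 73.7% of classical monocytes. In non-classical monocytes the chains had 158, 25.0, 205 and 10.4 CPM, so both KO libraries lay above both Het libraries, with 38.3%, 16.0%, 46.0% and 9.09% of the UMIs in 1 cell.

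H2-Oa and H2-DMb2 were spread over the cell types unlike the chains. H2-Oa had 101, 81.1, 95.4 and 101 CPM in B cells of KO_MI, Het_MI, KO_sham and Het_sham, the highest mean over libraries, but basophils and ILC2 had levels that overlapped these and were higher in some libraries. ILC2 had 111, 78.7, 61.0 and 104 CPM from 29, 17, 13 and 6 UMIs, and basophils 80.0, 58.6, 115 and 113 CPM from 12, 5, 15 and 14 UMIs. The 3 chains in ILC2 had 30.7 CPM in KO_MI and 41.6 CPM in Het_MI, from 8 and 9 UMIs of which 75.0% and 55.6% lay in 1 cell. No ILC2 of either sham library held a chain UMI (0 UMIs in 21 and 7 cells, which allows up to 14.1 CPM in KO_sham and 52.1 CPM in Het_sham). H2-Oa was 95.6% of the UMIs of H2-Oa and H2-DMa in ILC2 (87.6 to 99.1), 88.5% in basophils (76.6 to 95.6), 35.9% in B cells (34.6 to 37.3), 6.82% in cDC1 (5.56 to 8.27) and 2.50% in macrophages (2.22 to 2.79). Its partner H2-Ob was seen at 2 UMIs in ILC2 and 5 in basophils, against 65 and 46 of H2-Oa. Such shares count UMIs, not molecules per length, and are compared between cell types only.

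H2-DMb2 took a larger share of the DM beta UMIs in B cells than in the other cell types with at least 15 such UMIs, within the limit on how reads were split. It made up 83.5% of the UMIs of H2-DMb2 and H2-DMb1 there (82.1 to 84.8), with 82.3%, 84.6%, 82.2% and 84.7% in KO_MI, Het_MI, KO_sham and Het_sham. In migratory dendritic cells it was 45.5% (33.1 to 58.2), in cDC2 16.4% (12.2 to 21.4), in macrophages 7.70% (6.97 to 8.47) and in cDC1 4.27% (3.18 to 5.61). H2-DMb1 itself was at 24.6 to 31.1 CPM in B cells and at 608 to 826 CPM in cDC1. H2-Ob was highest in B cells, at 180 to 209 CPM, above the range of cDC1 (64.5 to 98.3 CPM), and no UMI of it was found in 29 plasmacytoid dendritic cells.

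**Figure D5:**
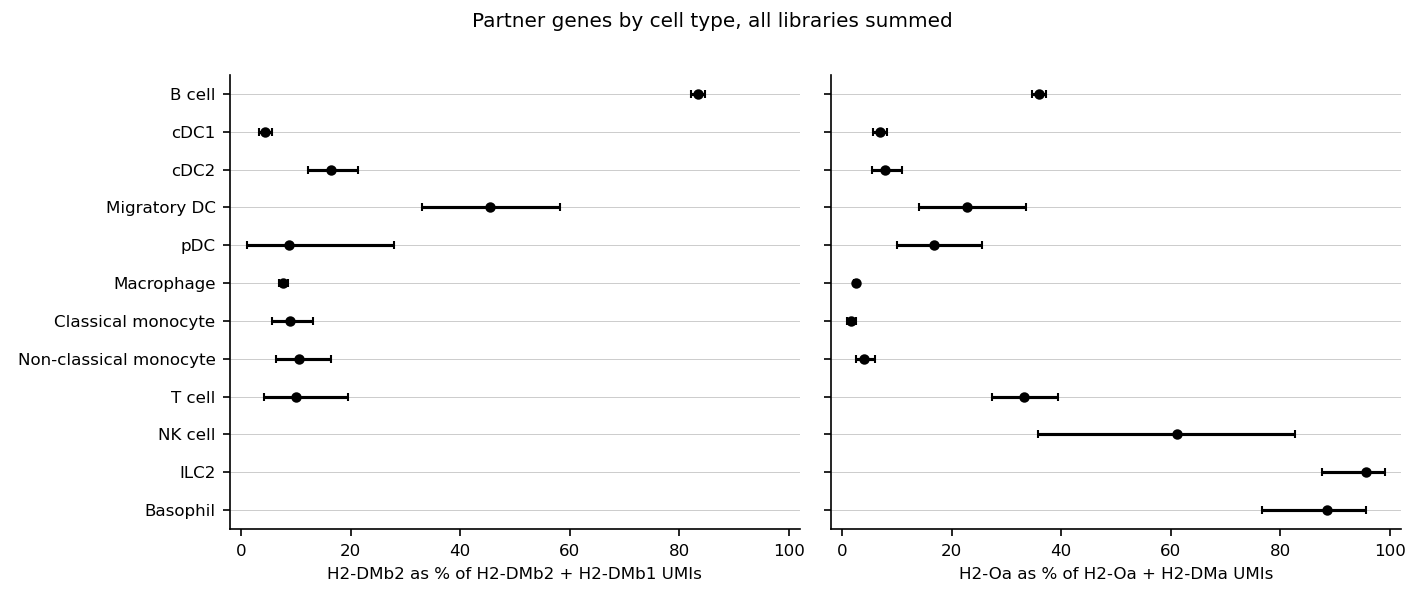
Share of H2-DMb2 in the UMIs of H2-DMb2 and H2-DMb1 (left) and of H2-Oa in those of H2-Oa and H2-DMa (right), by cell type with all libraries summed, with exact 95% intervals, for types with at least 15 UMIs of the pair. B cells lie at 83.5% on the left, and ILC2 and basophils at 95.6% and 88.5% on the right.

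Over 50 points (13 cell types by library), the genes whose log2(CPM + 10) most resembled the class II total among 4337 genes were Pkib (Pearson's r 0.88), Ifi30 (0.86), Fgd2 (0.83), Gdi2 and Clic4 (both 0.82). For Ciita they were Hepacam2 (0.89), Lmo1 (0.78), Olfm1, Tnni2 and Slamf7, for H2-Oa Mast4 (0.74), Itpr1, Ass1, Rps9 and Dpp4, and for H2-Ob Tnfrsf13c (0.78), Scd1, Hepacam2, Fcmr and Fgd2. The 4337 genes reached at least 100 CPM in at least 1 of the points. Ciita had no UMI in neutrophils, NK cells, mast cells and ILC2, where the added 10 sets its value. The points of 1 library share their depth and those of 1 type its composition, so these values are a description.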

How the data were processed

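Live CD45-positive cells from neonatal hearts were profiled with 10x Genomics 3′ v3 chemistry, 1 library per group. The submitters' processing notes name Cell Ranger 6.1.1 and Seurat 4, and the matrices carry Cell Ranger 4.0.0 in their headers. What the authors deposited are unnormalized UMI counts, a whole number for each gene in each barcode. The notes name the builds mm10 and GRCm38. How cells were called and how reads shared by near copies were counted is not stated there. The libraries held 72002420, 60461796, 66587021 and 52701847 UMIs in KO_MI, Het_MI, KO_sham and Het_sham.

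Cells with at least 500 UMIs, at least 200 genes and at most 10% mitochondrial UMIs were gated by detected markers into 14 types, using no class II gene. No doublet caller was run. Droplets in which a second of 10 lineages reached 10% of its own cells' level, with at least 3 UMIs and 2 markers, were set aside as mixed. Macrophages, monocytes and dendritic cells counted as 1 compartment, so doublets among them were not caught. Of the cells that passed, 9.22%, 8.24%, 7.51% and 10.5% had no type. The gate and subset limits were set after seeing the data, class II levels by type included. In an earlier form, macrophage, monocyte and dendritic markers were 1 lineage. It gave a class II total of 3410, 1265, 852 and 462 CPM in macrophages, but 145, 836, 2371 and 143 CPM in T cells, against 226, 229, 78.8 and 152 CPM with the final gate. It kept only 1, 3, 4 and 7 cDC1, against 23, 31, 40 and 23. The class II level of T cells thus depended on the gate, and T cells are given only their place in the order of types.

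UMIs were summed per type and library and divided by the type's total (CPM), with exact Poisson, Clopper-Pearson and conditional binomial intervals at 95%. A count of 0 was bounded at 3 counts per library. Called means at least 1.5-fold with at least 30 UMIs over both libraries. Ratios needed at least 20 cells in both libraries. A test across animals needs more libraries than each group has. Thinning drew 2000 UMIs per cell. All 10 members are described, with at most 4 named genes per list by UMIs in macrophages, and any gene called in a comparison besides (named after its values were seen). The result of 1 gene of the regulator list, and that list's counts in both KO_MI comparisons, are not reported here. The ratio code was tested on simulated data. Alternatives were further gates, scalings (TMM from edgeR 4.0.16, size factors from DESeq2 1.42.0) and subsets of cells. Python 3.11.15, scipy 1.17.1 and R 4.3.3 were used. Members and lists were chosen with earlier results of these data known.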

Additional observations from a re-analysis of the deposited data

Results flagged for a closer look

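H2-Ob in macrophages had point estimates of opposite sign in the 2 genotype comparisons. KO over Het was −0.32 on the log2 scale after infarction, from 94 UMIs in KO_MI and 108 in Het_MI, and 1.09 after sham surgery, from 137 UMIs in KO_sham and 34 in Het_sham. The value in MI had an interval that included 0. The difference between the 2 comparisons was not tested across animals, since each group is 1 library, and by counting error alone it was −1.42 (−2.09 to −0.74).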

How the results depend on the processing

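The class II total in macrophages was recomputed under 14 alternatives for each of 4 comparisons, and its log2 ratio was positive in 56 of 56 and past 1.5-fold in 55. In the order KO_MI over Het_MI, Het_MI over Het_sham, KO_MI over KO_sham and KO_sham over Het_sham, it was 1.59, 1.47, 2.10 and 0.96 with TMM scaling and 1.59, 1.49, 2.12 and 0.96 with median-of-ratios scaling. It was 1.28, 1.62, 1.97 and 0.93 with at most 5% mitochondrial UMIs, 1.5, 1.51, 2.05 and 0.97 without the top cell of each library, and 1.54, 1.31, 2.16 and 0.69 as a mean share per cell. It was 2.71, 0.64, 1.73 and 1.62 in cells with Xist and no Y-linked UMI, 1.68, 1.36, 2.48 and 0.55 without cells with 2 dendritic markers, and 1.58, 1.95, 2.20 and 1.33 for the 3 chains only. Where 1 of the 4 moved by less than its interval, the others were 0.84, 1.41 and 0.81 with droplets of several lineages kept (Het_MI over Het_sham left out), 1.53, 2.17 and 0.78 thinned to 2000 UMIs (likewise), and 1.53, 1.28 and 0.81 without cells with a B cell marker UMI (KO_MI over KO_sham left out). Both KO_MI comparisons were 1.32 and 1.85 without cells with a Cxcl9 UMI, and both MI comparisons with a Het_MI library were 1.43 and 1.45 with macrophage, monocyte and dendritic markers as 1 lineage. The causes were not tested. The dendritic, B cell, 3-chain and 1-lineage alternatives were chosen after seeing the data.

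Single members called in macrophages gave 377 alternative values, of which 357 stayed past 1.5-fold and 3 reversed. H2-Oa for Het_MI over Het_sham was −0.38 thinned and −0.63 in cells with Xist and no Y-linked UMI, where H2-Ob was −0.21. Counts of members called stayed within 1.5 times. The order of the 14 cell types kept 6 in place when droplets of several lineages were kept. No paired analysis was possible because each group is 1 library, and for the same reason no replicate could be left out. Low counts limit H2-Oa, H2-Ob, H2-DMb2 and Ciita in macrophages, and few cells limit dendritic cells, ILC2 and basophils.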
